A study of Mus musculus with 8 samples.

Results

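The 10 genes described here are core genes and direct outputs of the circadian clock, the cell-autonomous oscillator that gives tissues a daily rhythm of gene expression. They were chosen by name, with earlier results of these arrays known, as 1 probe set each among 21115. They fall into a positive limb (Arntl and Npas2) and a negative limb with outputs (Per1, Per2, Per3, Nr1d1, Nr1d2, Dbp, Tef and Ciart). In mice, the protein of Arntl, also called BMAL1, pairs with CLOCK or NPAS2 and activates genes that carry E-boxes, among them the Period genes, the Rev-erb genes Nr1d1 and Nr1d2, Dbp, Tef and Ciart. Period proteins and CIART repress that pair, while the Rev-erb receptors repress Arntl and Npas2 through the ROR response element, so the limbs peak at opposed times of day in mouse peripheral tissues. Per1 is also a classical direct target of the glucocorticoid receptor, and Rev-erb-alpha is known as a repressor of the heat-producing programme of mouse brown fat.

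RNA came from brown adipose tissue, which burns fuel to make heat, and was measured on 8 Affymetrix Mouse Gene 1.1 ST arrays. Of these, 4 arrays were of GRBATKO mice, a brown fat knockout of the glucocorticoid receptor gene Nr3c1, and 4 were of controls, which the sample labels call wild type and the design text calls Flox. All animals, controls included, were aged 16 to 20 weeks when the cold began and spent 1 week at 5 °C. No warm group was analysed here. The sources used here give neither the driver of the deletion, nor the sex of the animals, nor the time of day of tissue collection. The replicate numbers in the labels name separate samples but not how tissue was taken from each animal, so p-values reflect only how these samples vary, and part of that variation may be technical.

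One label, the extraction protocol, speaks of peritoneal macrophages, against the tissue field, whereas Ucp1, the uncoupling protein that defines brown fat, had the highest or second highest intensity of each array (rank 1 or 2). Nr3c1 (14815_at) was 8.61 ± 0.08 (log2 intensity, SD, n = 4) in controls and 7.74 ± 0.10 (SD, n = 4) in GRBATKO tissue, with no overlap and a limma adjusted p of 0.00697. Controls lay in array rows A and B and GRBATKO in rows C and D, so row and genotype cannot be told apart. Both groups held array columns 5 and 7. Controls 1 and 4 had higher 25th percentiles of intensity (3.03 and 3.05) than the other arrays (2.84 to 2.90) and stood apart on the first principal component, which held 23.7% of the variance. Control 3 and GRBATKO 4 stood apart in skeletal muscle markers: the mean of 13 such genes, each centred on its mean over the 8 arrays, was 2.97 and 1.39 there against -0.94 to -0.02 elsewhere. GRBATKO 2 stood apart in lymphocyte markers, the mean of 11 such genes being 1.07 there against -0.24 to 0.07 elsewhere. In this bulk tissue, fewer cells of a type and less RNA per cell cannot be told apart.

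Start regions of the genes were read from RefSeq (GRCm38.p6) to show which clock elements they carry, for 9 of the 10 genes in 12 windows of 250 bases before and 50 after an annotated start, both strands being searched; Per2 is named only. The E-box (CACGTG) was in 7.15% of 32851 such windows of all genes, and in 4 of the 12 windows here, which belong to 3 genes. Ciart held 3 of them, at 116, 58 and 44 bases before its start, a number reached by 0.0883% of all windows. The D-box (TTATGTAA), the element bound by DBP and TEF, was in 0.938% of windows, and Per3 held 2, at 205 and 158 bases before its start, which 0.0213% of windows did. Per1 had an E-box at 166 bases before 1 of its starts and none in the window of its other start. Tef had an E-box at 127 and 138 bases before either of its starts. In 1 Arntl window there was a ROR response element from base 27 after its start, an element found in 0.384% of windows. No window of the 9 genes matched the cyclic AMP response element TGACGTCA (1.79% of all windows) or the glucocorticoid response element searched as GNACA, 3 bases, TGTNC (0.475%). The windows of Arntl, Npas2, Per3, Nr1d1, Nr1d2 and Dbp held no E-box of this form. Other forms of an element and positions outside the windows were not searched, so a missing match does not show that a gene lacks the element. These matches describe the letters only. The first stretches below are the 250 bases before the start and the last is 30 bases around the Arntl match, all 5′ to 3′ on the gene's strand, with the matched element in capitals.
Per3, chr4:151044666-151044915, minus strand, 2 D-boxes: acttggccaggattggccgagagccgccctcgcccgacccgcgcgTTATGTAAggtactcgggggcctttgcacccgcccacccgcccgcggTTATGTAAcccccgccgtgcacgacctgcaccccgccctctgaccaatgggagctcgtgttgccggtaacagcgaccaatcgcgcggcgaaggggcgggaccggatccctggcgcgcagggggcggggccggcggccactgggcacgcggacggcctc
Ciart, chr3:95882229-95882478, minus strand, 3 E-boxes: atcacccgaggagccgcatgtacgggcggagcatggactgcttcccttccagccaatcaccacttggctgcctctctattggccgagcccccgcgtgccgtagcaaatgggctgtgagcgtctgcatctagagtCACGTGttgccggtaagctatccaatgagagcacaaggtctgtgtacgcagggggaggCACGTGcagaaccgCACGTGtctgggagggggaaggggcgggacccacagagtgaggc
Per1, chr11:69098699-69098948, plus strand, 1 E-box: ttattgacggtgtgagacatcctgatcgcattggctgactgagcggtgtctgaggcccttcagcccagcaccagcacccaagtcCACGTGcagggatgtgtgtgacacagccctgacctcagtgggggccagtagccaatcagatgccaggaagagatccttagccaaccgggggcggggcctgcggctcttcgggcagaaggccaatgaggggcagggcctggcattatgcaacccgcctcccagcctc
Tef, chr15:81802423-81802672, plus strand, 1 E-box: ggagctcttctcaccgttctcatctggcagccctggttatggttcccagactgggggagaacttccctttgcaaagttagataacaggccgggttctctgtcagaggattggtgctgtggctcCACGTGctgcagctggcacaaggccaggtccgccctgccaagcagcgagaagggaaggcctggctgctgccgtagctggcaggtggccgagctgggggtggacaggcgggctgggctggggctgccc
Arntl, chr7:113207527-113207556, plus strand, the ROR response element: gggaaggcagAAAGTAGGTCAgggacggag

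The positive limb was lower on average in GRBATKO tissue, with both genes short of the threshold (adjusted p of 0.05 over all probe sets). Arntl (11865_at) had log2 intensities of 7.23, 6.72, 7.02 and 6.54 in controls 1 to 4 and of 6.59, 6.74, 6.66 and 6.17 in GRBATKO 1 to 4. Controls 1 and 3 lay above every GRBATKO array, GRBATKO 4 lay below every control, and the groups overlapped. Its means were 6.88 ± 0.31 and 6.54 ± 0.26 (SD, n = 4), a log2 difference of -0.34 (GRBATKO minus control, SE 0.17, 95% interval -0.72 to 0.05, limma adjusted p = 0.629, two-sided exact permutation p = 0.200). It was -0.22 without control 1, -0.21 without GRBATKO 4 and -0.16 without control 3 and GRBATKO 4. Npas2 (18143_at), the partner that can stand in for CLOCK, read 6.44, 5.61, 6.11 and 5.76 in controls and 5.48, 5.66, 5.75 and 5.33 in GRBATKO tissue. Again controls 1 and 3 were the highest arrays, while control 2 lay within the GRBATKO range. Its means of 5.98 ± 0.37 and 5.55 ± 0.19 (SD, n = 4) differed by -0.43 (SE 0.18, 95% interval -0.82 to -0.03, limma adjusted p = 0.563, exact permutation p = 0.114), and by -0.27 without control 1. With 4 arrays against 4, the 70 possible arrangements allow no exact p below 0.0286.

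The Period genes, which code for the repressors that close the clock's loop, did not share a direction: Per3 was higher on average, Per1 lower and Per2 about level. Per3 (18628_at) had log2 intensities of 5.19, 6.45, 5.37 and 5.88 in controls and of 6.41, 6.63, 6.29 and 6.90 in GRBATKO tissue. Only control 2 reached the GRBATKO values, and the other controls lay below all of them. The means of 5.72 ± 0.56 and 6.56 ± 0.27 (SD, n = 4) correspond to 1.79-fold and a log2 difference of 0.84 (SE 0.26, 95% interval 0.26 to 1.41), the largest in size among the 10 genes, with a limma adjusted p of 0.442 and an exact permutation p of 0.0857. This Per3 difference was 0.66 without control 1 and 1.08 without control 2. It was 0.65 without controls 1 and 4, and 0.61 without control 3 and GRBATKO 4. Per1 (18626_at) read 5.66, 6.75, 6.78 and 6.32 in controls and 6.09, 6.13, 5.90 and 6.22 in GRBATKO tissue. Controls 2, 3 and 4 exceeded every GRBATKO array and control 1 lay below all of them, and the difference of -0.30 (SE 0.22, 95% interval -0.80 to 0.20, limma adjusted p = 0.742) was -0.54 without control 1, -0.17 without control 2 and -0.16 without control 3. Without controls 1 and 4, the arrays apart on the first component, it was -0.68 (limma adjusted p = 0.236). Per2 (18627_at) ranged from 4.71 to 5.91 in controls and from 4.65 to 5.52 in GRBATKO tissue, with a difference of 0.01 (SE 0.28, 95% interval -0.62 to 0.63, limma adjusted p = 0.997), and its sign turned with single arrays left out (-0.14 without control 1, 0.27 without control 2).

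The Rev-erb genes, which code for heme-binding nuclear receptors that repress Arntl, did not share a direction either, with Nr1d2 higher on average and Nr1d1 near the control mean. Nr1d2 (353187_at) had log2 intensities of 7.33, 8.22, 8.14 and 8.39 in controls and of 8.43, 8.29, 8.42 and 8.67 in GRBATKO tissue. GRBATKO 1, 3 and 4 lay above every control and the lowest array by far was control 1. The means were 8.02 ± 0.47 and 8.45 ± 0.16 (SD, n = 4), with a difference of 0.44 (SE 0.21, 95% interval -0.03 to 0.90, limma adjusted p = 0.609, exact permutation p = 0.0571) that was 0.20 without control 1 and 0.27 without controls 1 and 4. Nr1d1 (217166_at) read 9.19, 10.31, 10.10 and 10.02 in controls and 9.79, 9.85, 9.73 and 9.95 in GRBATKO tissue. All GRBATKO arrays fell inside the gap between control 1 and the other controls, and the difference was -0.08 (SE 0.21, 95% interval -0.55 to 0.39, limma adjusted p = 0.935), at -0.32 without control 1 and 0.058 without control 2.

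Dbp and Tef code for PAR bZIP transcription factors, which carry the clock's rhythm to genes with D-boxes, and both were higher on average in GRBATKO tissue. Dbp (13170_at) had log2 intensities of 5.42, 7.09, 5.78 and 6.30 in controls and of 6.81, 7.10, 6.46 and 7.40 in GRBATKO tissue. As for Per3, control 2 alone among controls lay within the GRBATKO range. Its means of 6.15 ± 0.72 and 6.94 ± 0.40 (SD, n = 4) correspond to 1.73-fold and a difference of 0.79 (SE 0.33, 95% interval 0.04 to 1.54, limma adjusted p = 0.563, exact permutation p = 0.114). Tef (21685_at) read 6.21, 6.94, 6.38 and 6.34 in controls and 6.88, 6.98, 6.63 and 7.18 in GRBATKO tissue. The same control, control 2, was the one inside the GRBATKO range. Its means of 6.47 ± 0.32 and 6.92 ± 0.23 (SD, n = 4) differed by 0.45 (SE 0.17, 95% interval 0.07 to 0.83, limma adjusted p = 0.536, exact permutation p = 0.0857). Without controls 1 and 4 the difference was 0.51 for Dbp and 0.26 for Tef, and without control 3 and GRBATKO 4 it was 0.52 for Dbp. Ciart (229599_at), the dimmest of the 10 probe sets, ranged from 3.84 to 5.48 in controls and from 4.33 to 5.32 in GRBATKO tissue, with a difference of 0.43 (SE 0.35, 95% interval -0.36 to 1.21, limma adjusted p = 0.758). That difference was 0.22 without control 1, 0.25 without control 4, 0.28 without GRBATKO 1, 0.76 without control 2 and -0.15 without controls 1 and 4.

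**Figure D1:**
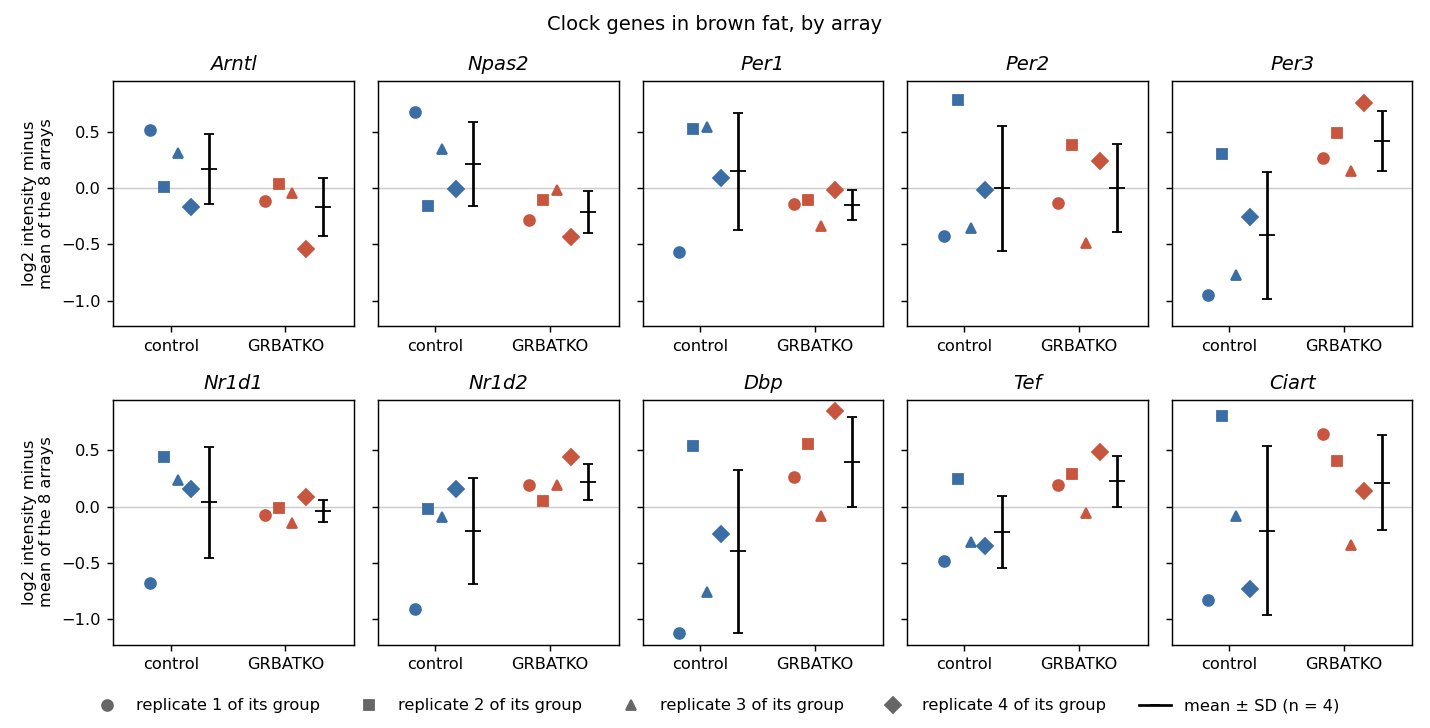
Log2 intensity of each of the 10 clock genes, minus that gene's mean over the 8 arrays, in 4 control (blue) and 4 GRBATKO (red) arrays; symbols mark the replicate number and black bars the group mean ± SD. Control 1 is the lowest array for Per1, Per3, Nr1d1, Nr1d2, Dbp, Tef and Ciart and the highest for Arntl and Npas2, and the groups overlap for every gene.

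None of the 10 genes passed the adjusted threshold, which 0.0237% of all probe sets (5 of 21115) did. At an unadjusted p under 0.05 in limma there were 4, with Per3, Dbp and Tef higher and Npas2 lower, that is 4 of 10 against a background of 8.62% of all probe sets. The 10 genes vary together, as described below, so these 4 are not separate observations. They were also chosen with earlier results of these data known, so the contrasts with all probe sets given here are a description only. With the ordinary t statistic in place of limma's shared variance, 1 of the 10 had an unadjusted p under 0.05. In none of the 10 were the groups free of overlap, against 5.64% of all probe sets. Among the 10 means, 6 were higher and 4 lower, with a median difference of 0.22 and a median size of 0.43, against -0.002 and 0.09 over all probe sets. Their spread within groups was wider as well, with a median pooled SD of 0.37 against 0.15 over all probe sets. Within array column 5 and within column 7, each with 2 arrays a group, the differences had the same sign for 8 of the 10 genes (Per3 at 1.07 and 0.60, Dbp at 1.03 and 0.55, Tef at 0.46 and 0.44, Npas2 at -0.66 and -0.19). Per2 and Nr1d1 had opposite signs in the columns.

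These genes were also among the most variable between arrays of one genotype. Their pooled SD within groups exceeded that of 88.6% (Tef) to 99.2% (Ciart) of all probe sets. Against the 2000 probe sets nearest in mean level, the share exceeded ran from 92.5% for Npas2 to 99.6% for Dbp. The range was wider in controls for all 10 genes, and for 8 of them with control 1 left out (Arntl and Nr1d2 being the exceptions). For Nr1d1 the highest and lowest controls were 1.12 apart on the log2 scale, against 0.23 for GRBATKO, but 0.29 apart without control 1. For Per1 they were 1.12 apart against 0.32, and 0.45 apart without control 1. For Dbp these ranges were 1.67 and 0.94, and the control range was 1.30 without control 1. This is a description, since the values of one array move together across the genes and no test of the spread was run.

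Of 22 further genes listed as clock genes or as linked to the clock, 20 were measured and compared in the same fit. None passed the adjusted threshold and 2 of 20 had an unadjusted p under 0.05 in limma, both higher, a share near the 8.62% of all probe sets. The groups did not overlap in 3 of 20, against 5.64% of all probe sets. Of their means, 13 were higher and 7 lower, with a median difference of 0.07. Wee1, a kinase that holds cells before mitosis and a known E-box target, read 5.37, 5.25, 5.17 and 5.05 in controls and 5.78, 5.58, 5.40 and 5.51 in GRBATKO tissue. Its groups did not overlap, with a difference of 0.35 (SE 0.10, limma adjusted p = 0.420, exact permutation p = 0.0286, the smallest possible). Btrc, part of the ubiquitin ligase that marks Period proteins for breakdown, ranged from 6.45 to 6.67 in controls and from 6.69 to 7.02 in GRBATKO tissue, without overlap, and differed by 0.24 (SE 0.10, limma adjusted p = 0.561). Clock, the partner of BMAL1, ranged from 9.23 to 9.33 in controls and from 9.06 to 9.18 in GRBATKO tissue, also without overlap, and differed by -0.13 (SE 0.07, limma adjusted p = 0.622). The Clock probe set varied little, its pooled SD being above only 12.1% of probe sets of like level. Cry1, the repressor that acts with Period proteins, differed by -0.27 (SE 0.13, limma adjusted p = 0.619) with overlap.

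**Figure D2:**
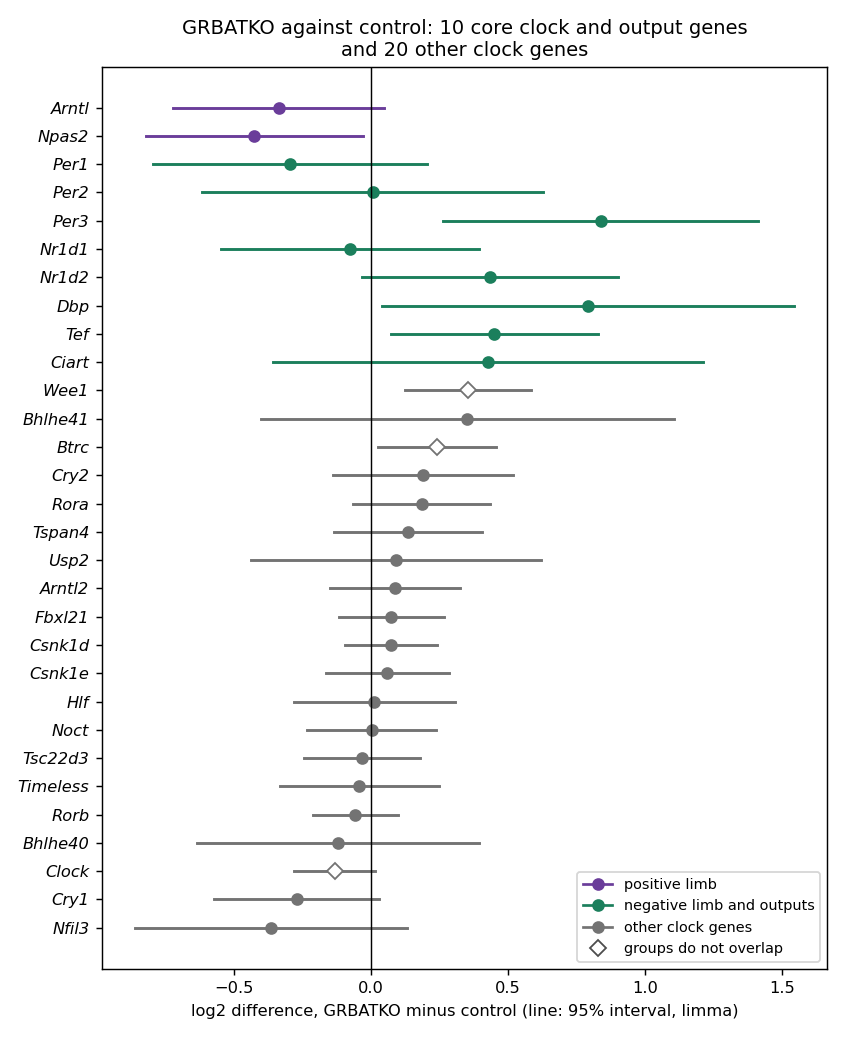
Log2 difference (GRBATKO minus control, n = 4 each) with its 95% interval from limma for the 10 clock genes (purple, positive limb; green, negative limb and outputs) and the 20 other clock genes (grey, in order of difference). Both purple points lie below 0, Per3, Dbp, Tef, Nr1d2 and Ciart lie above it, and open diamonds mark Wee1, Btrc and Clock, whose groups do not overlap.

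To compare the limbs, each gene was centred on its mean over the 8 arrays and the genes of a limb were averaged on each array. The positive limb stood at 0.60, -0.07, 0.33 and -0.09 in controls and at -0.20, -0.04, -0.03 and -0.49 in GRBATKO tissue. The negative limb and outputs stood at -0.75, 0.45, -0.20 and -0.15 in controls and at 0.15, 0.26, -0.14 and 0.37 in GRBATKO tissue. Control 1 was the highest array in the first and the lowest in the second, and GRBATKO 4 was the lowest in the first and the second highest in the other. The group difference was -0.38 for the positive limb and 0.32 for the negative limb, with overlapping groups in both. The latter rested largely on single controls: it was 0.13 without control 1, 0.53 without control 2 and 0.03 without controls 1 and 4, where the positive limb's difference was -0.25, -0.47 and -0.32. Leaving out control 3 and GRBATKO 4, the arrays highest in muscle markers, gave -0.24 for the positive and 0.24 for the negative limb.

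The limbs ran opposite to each other across arrays, with Pearson's r of -0.83 and Spearman's rho of -0.67 (n = 8). With each genotype's mean removed, r was -0.79 and rho -0.76. It was -0.83 over the 4 controls and -0.68 over the 4 GRBATKO arrays. Without the 2 arrays farthest from the median of the positive limb, control 1 and GRBATKO 4, r was -0.47 and rho -0.37 (n = 6), so the strength of the relation rests in part on those arrays. Without 1 array at a time r lay between -0.89 (control 2 left out) and -0.61 (control 1 left out). Within the negative limb, the mean of Per3, Dbp and Tef followed the positive limb more closely (r = -0.89) than the mean of Per1 and Nr1d1 did (r = -0.34), a split made after the values were seen. Gene by gene, the split was smaller with genotype means removed. Npas2 then had r of -0.69 with Per1 and -0.83 with Nr1d1, against -0.90, -0.90 and -0.77 with Per3, Dbp and Tef. For Arntl these were -0.46 and -0.63, against -0.74, -0.72 and -0.54. No p is given for limb means, because the genes were chosen with results of these arrays known.

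**Figure D3:**
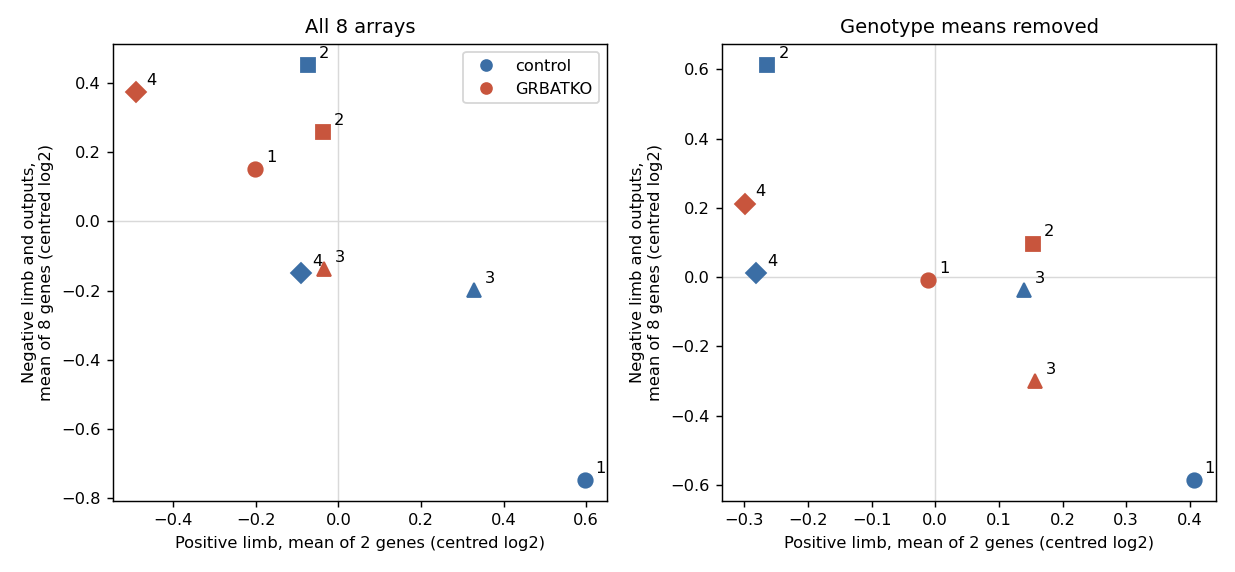
Mean of the negative limb and outputs (8 genes, vertical) against the mean of the positive limb (2 genes, horizontal), in log2 units centred on each gene's mean over the 8 arrays; each point is 1 array, numbered by replicate, in blue for control and red for GRBATKO. The left panel shows all 8 arrays (r = -0.83), with control 1 at the lower right and GRBATKO 4 at the upper left, and the right panel shows the same values after each genotype's mean was removed (r = -0.79).

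Several measures of the arrays moved with the limbs, as did array column, and their part in these results was not tested. The negative limb stood at -0.75 and -0.20 in column 5 controls and at 0.45 and -0.15 in column 7 controls. In GRBATKO tissue it stood at 0.15 and -0.14 in column 5 and at 0.26 and 0.37 in column 7. The positive limb's values were 0.60 and 0.33 against -0.07 and -0.09 in controls. They were -0.20 and -0.03 against -0.04 and -0.49 in GRBATKO tissue, where the columns overlapped. The first principal component over all probe sets had r = -0.76 and rho = -0.71 with the negative limb, and r = 0.46 and rho = 0.19 with the positive limb. The interquartile range of an array's intensities had r = 0.75 and rho = 0.50 with the negative limb, and r = -0.44 and rho = 0 with the positive limb. The mean of 12 macrophage markers had r = 0.48 and rho = 0.86 with the positive limb, at -0.41 to 0.12 in controls and -0.25 to 0.36 in GRBATKO tissue, 7 markers being higher and 5 lower on average in the latter. The mean of 13 brown adipocyte markers had r = 0.62 and rho = 0.86 with the positive limb, over a range from -0.06 to 0.07. Its group difference was -0.01, with 10 markers higher and 3 lower on average in GRBATKO tissue. The mean of 8 endothelial markers had r = -0.38 and rho = -0.71 with the positive limb, over a range from -0.07 to 0.07. The mean of skeletal muscle markers had r = 0.07 and rho = -0.05 with the positive limb, and r = -0.06 and rho = -0.48 with the negative limb. Its group difference was -0.69 with overlapping groups, 12 markers being lower and 1 higher on average in GRBATKO tissue.

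Gene by gene, all 16 correlations between a positive-limb gene and a gene of the negative limb or output set were negative over the 8 arrays, from -0.94 to -0.11 with a median of -0.68. All 28 correlations within the negative limb and outputs were positive, from 0.06 to 0.98 with a median of 0.64. The signs were the same with genotype means removed, where the ranges were -0.90 to -0.15 and 0.32 to 0.99. The 8 points of each pair share their arrays, and 45 pairs were computed. The pairs named below were picked by their values, so they are given as a description, with no p.

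The tightest pair was Per3 with Dbp, at r = 0.98 and rho = 1. It held at 0.93 without controls 1 and 3, the arrays farthest from the median of Per3, and at 0.99 with genotype means removed. Among all 21114 other probe sets, Per3 ranked first in its correlation with Dbp, and Tef, at r = 0.96, ranked 7th. Per1 followed Nr1d1 most closely (r = 0.91, rho = 0.98), at 0.96 without controls 2 and 3. Its correlation with Per3 was 0.06 over all 8 arrays and 0.59 with genotype means removed. With Dbp and Tef it was 0.22 and 0.16 over all 8 arrays, and 0.66 for both with genotype means removed.

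Between the limbs, Npas2 ran against Dbp (r = -0.94, rho = -0.90) and against Per3 (r = -0.94). These were -0.78 and -0.77 without controls 1 and 3, and -0.90 for both with genotype means removed. Among the 21114 other probe sets, Npas2 ranked 13th from the lowest with Dbp and 10th from the lowest with Per3. Arntl ran against Nr1d2, a receptor that represses it (r = -0.89, rho = -0.90), and this pair kept r = -0.86 without control 1 and GRBATKO 4 and -0.83 with genotype means removed. Arntl and Npas2 varied together at r = 0.92 and rho = 0.69, and at 0.77 without control 1 and GRBATKO 4.

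**Figure D4:**
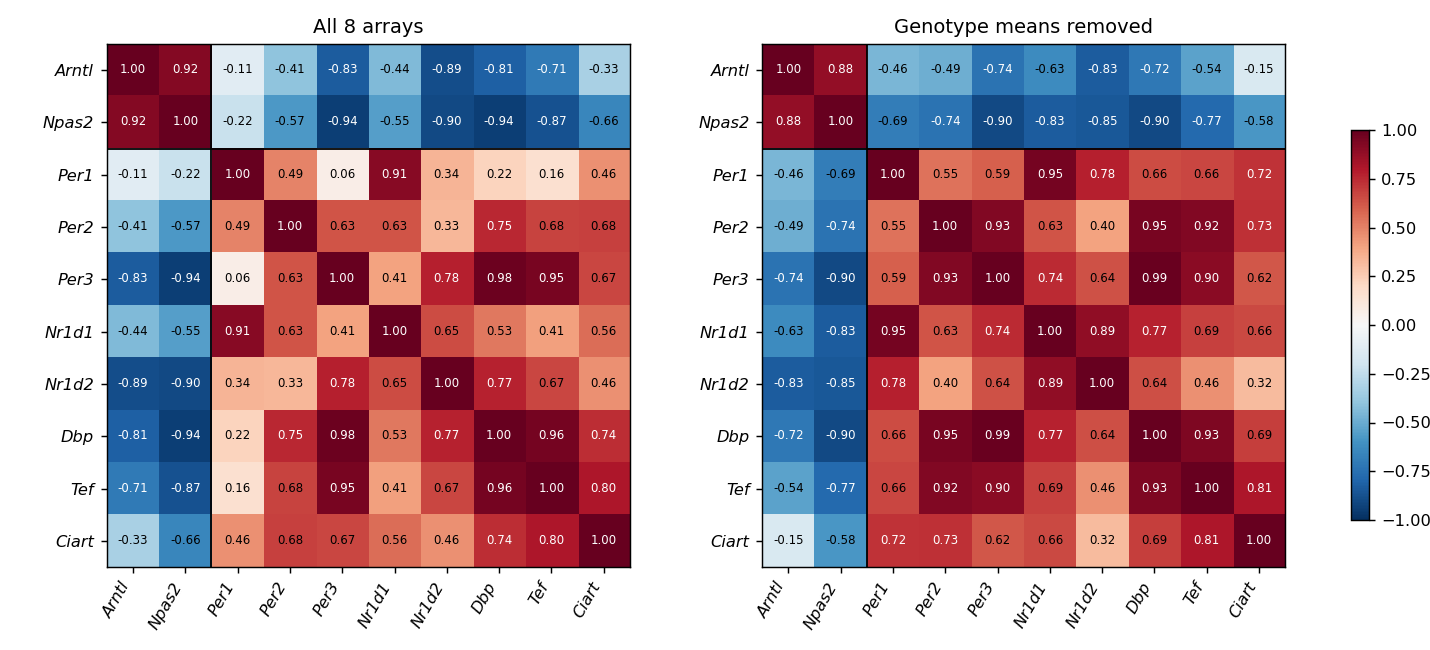
Pearson correlations among the 10 clock genes over the 8 arrays, as measured (left) and with each genotype's mean removed (right), on a colour scale from -1 (blue) to 1 (red); black lines part the positive limb from the rest. The blocks between the limbs are negative and the blocks within them positive in both panels, and Per1 is close to 0 with Per3 (0.06) in the left panel only.

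Since arrays moved along this shared axis within each genotype, the genes were also compared with each other on the same array. Such a log2 difference has no meaning as a level, because probe sets differ in their response, and only its change between arrays is read. It was computed after the values had been seen, and no test was made of it. Per3 minus Per1 was -0.47, -0.31, -1.41 and -0.44 in controls and 0.32, 0.51, 0.40 and 0.68 in GRBATKO tissue. The groups did not overlap, and their means lay 1.13 apart. Dbp minus Per1 was -0.24, 0.33, -0.99 and -0.02 in controls and 0.72, 0.97, 0.56 and 1.18 in GRBATKO tissue, again without overlap and 1.09 apart. Tef, Nr1d2 and Nr1d1 minus Per1 were higher in GRBATKO by 0.75, 0.73 and 0.22, each without overlap, so that 5 of the 9 other genes showed no overlap when read against Per1. Over all 21114 other probe sets, 0.644% did so. Per1 was the gene with the most such pairs, 5 against at most 3 for any other of the 10 genes. The comparison with Per1 was made after the values had been seen and the 5 genes vary together, so they are not separate observations. The contrast with 0.644% is a description and was not tested.

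The groups did not overlap in 4 pairs without Per1 either. Per3 minus Per2 was 0.49, 0.53, 0.59 and 0.76 in controls and 1.41, 1.12, 1.65 and 1.53 in GRBATKO tissue, 0.83 apart with no overlap. Dbp minus Per2 was 0.79 higher in GRBATKO, Nr1d2 minus Nr1d1 was 0.51 higher, and Nr1d1 minus Per3 was lower by a signed difference of -0.91, all without overlap. In total 9 of the 45 pairs did not overlap, and none of the 9 involved Arntl or Npas2. Over all pairs of probe sets on the array 5.12% did not overlap. The 9 pairs share genes and arrays, so they are not separate observations.

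**Figure D5:**
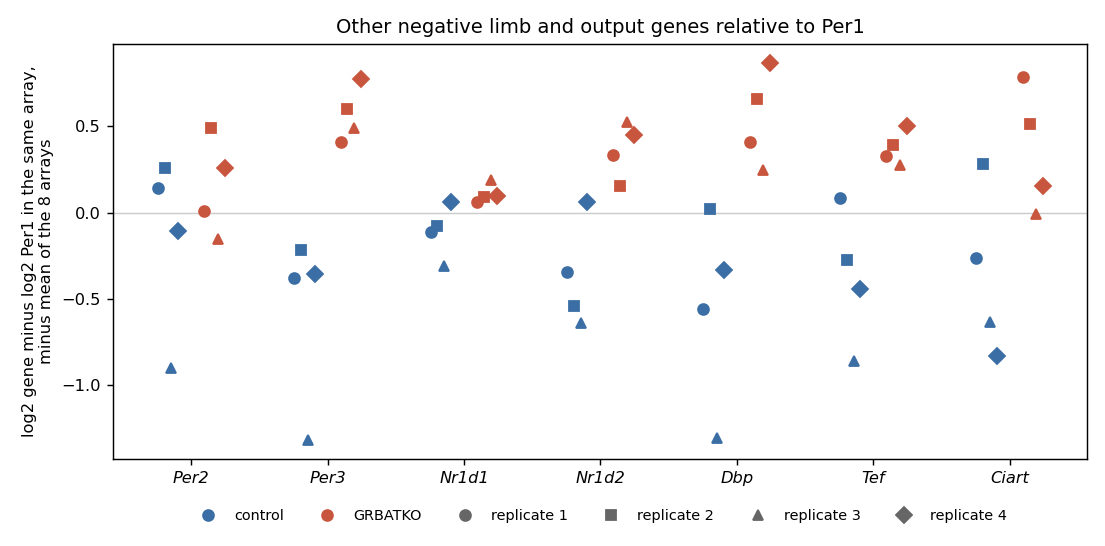
Log2 intensity of the 7 other negative-limb and output genes minus that of Per1 on the same array, centred on the mean of the 8 arrays, in control (blue) and GRBATKO (red); symbols mark the replicate number. Per3, Nr1d1, Nr1d2, Dbp and Tef show no overlap between the groups, while Per2 and Ciart overlap, and control 3 is the lowest array for Per3, Dbp and Tef.

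The named probe sets most like each limb were taken by Pearson's r over the 8 arrays. The 10 clock genes themselves, predicted genes and olfactory or vomeronasal receptors were left out of this naming but not of the counts. For the positive limb these were Fstl1 (r = 0.98), Spred3 (0.97), Sh3pxd2a (0.96), Dppa4 (0.95) and Nap1l2 (0.95), with 37 probe sets at 0.9 or above. For the negative limb and outputs they were Zcchc17 (r = 0.99), Vta1 (0.99), Coq8b (0.97), Ap1b1 (0.96) and Cpped1 (0.96), with 68 at 0.9 or above. With so many probe sets and 8 arrays, high values arise for many. None of the 10 probe sets named here is among the 20 other clock genes. Of those 20, Nfil3 was nearest to the positive limb, at r = 0.95 and rank 13 of all probe sets. Nfil3, a D-box repressor named after its values were seen, ranked 2nd among 21114 in its correlation with Arntl (r = 0.97), above Npas2 at rank 21. Its log2 intensities were 6.41, 5.69, 6.24 and 5.38 in controls and 5.64, 5.79, 5.62 and 5.22 in GRBATKO tissue, so controls 1 and 3 were the highest arrays here too. The difference of -0.36 (SE 0.22, limma adjusted p = 0.687) did not pass the threshold.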

How the data were processed

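Brown adipose tissue RNA of 4 control and 4 GRBATKO samples was measured on Affymetrix Mouse Gene 1.1 ST arrays. Per the submitters' processing notes the authors summarised probes with RMA, with no version named. The deposited table holds 1 linear intensity per probe set and array, and log2 was taken before any test. It has 21115 probe sets numbered by gene, of which the platform annotation names 20405 and leaves 710 unnamed, and no detection call was used, so it is unknown how far a dim probe set lies above background. The number of arrays limits the precision.

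Samples were grouped by the genotype in the labels. Genotypes were compared with limma 3.58.1 (R 4.3.3, lmFit and eBayes, 6 residual and 3.46 prior degrees of freedom) over all probe sets, with Benjamini-Hochberg adjustment and a threshold of 0.05. A two-sided exact permutation test over the 70 arrangements was added for single genes, and correlations are given with no p. The fit was tested on simulated data. Named were the 10 genes always, the 4 other clock genes of smallest unadjusted p (none passed the adjusted threshold), the 5 named probe sets most like each limb, and Nr3c1; Nfil3 was named outside this rule after its values were seen. The members and lists were chosen with earlier results of these data known. Alternatives changed the variance model (an intensity trend, robust estimation, or the ordinary t statistic), the scaling (median centring or a second quantile normalization), the weights of arrays and the probe sets kept (without dim ones, means below the 40th percentile, or flat ones, interquartile range up to 0.25). Others added a block for array column or replicate number, or left out arrays. Figures were drawn with matplotlib 3.10.9.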

Additional observations from a re-analysis of the deposited data

How the results depend on the processing

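None of the 10 clock genes passed the adjusted threshold under any of 20 alternatives, and the lowest adjusted p was 0.229. The number at an unadjusted p under 0.05 ranged from 0 to 6. Of the 10 genes, 7 kept their direction throughout. Per2 turned to -0.013 with repeated quantile normalization, to -0.21 without controls 1 and 4 and to -0.19 without control 3 and GRBATKO 4 (a pair chosen after seeing the data), and ranged from -0.14 to 0.27 without 1 array. Nr1d1 ranged from -0.32 to 0.058 without 1 array, turning without control 2, and Ciart was -0.15 without controls 1 and 4. Over all probe sets, 5 passed the threshold, against 30 with an intensity trend, 1 with the ordinary t statistic, 8 with repeated quantile normalization, 14 without dim and 10 without flat probe sets (where Arntl and Nr1d2 were not tested), 3 to 5 without 1 array (3 without GRBATKO 2), 3 without controls 1 and 4 and 2 without control 3 and GRBATKO 4. The causes were not tested. Same-numbered samples had correlations of -0.06 to 0.09, which are too few to show whether the numbers pair samples. Odd numbers lay in array column 5 and even numbers in column 7, so a block for the number also holds the column. This block lowered the SE of each of the 10 genes, that of Per2 from 0.28 to 0.13 and that of Per3 from 0.26 to 0.17. With a replicate block 1 probe set passed the threshold and none of the 10 genes did, while 6 of them had an unadjusted p under 0.05. The limb differences and their correlation kept their sign under every alternative run, with ranges without 1 array of -0.47 to -0.25 (positive limb), 0.13 to 0.53 (negative limb) and -0.89 to -0.61 (correlation). With 4 arrays a group, the 95% interval of Per1 spans -0.80 to 0.20.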
